A study of Mus musculus with 12 samples.

Results

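Epidermis was compared with whole skin in mice with a conditional knockout (cKO) of Adam17, using 6 of the 12 RNA-seq libraries of the series, 3 of knockout epidermis and 3 of knockout whole skin, chosen by their titles alone. All genes were members of the comparison, and 14117 of the 47643 genes in the deposited tables had enough reads to be tested. The knockout mice carried Sox9-Cre and Adam17 alleles flanked by loxP sites (ADAM17 fl/fl), on a C57BL/6 background, and were 10 weeks old. The other 6 libraries were epidermis and whole skin of wild type mice of the same strain and age, 3 each. Sox9 is a transcription factor of hair follicle progenitors, and cells outside the lineages that expressed the Cre keep Adam17, so whole skin holds both kinds of cell. The labels do not say how the epidermis was separated, from which body site it came, or whether replicate libraries are from different animals. The p-values therefore measure the spread between these libraries, which need not be that between animals.

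Skin consists of a keratinised epithelium, the epidermis with its hair follicles and sebaceous glands, over a dermis of fibroblasts, vessels, fat, muscle and immune cells. Keratinocytes divide in the basal layer, build desmosomes and the keratins Krt1 and Krt10 in the spinous layer, and at the end of their path cross-link a cornified envelope and secrete the lipids of the barrier. ADAM17 is a membrane protease that releases ligands of the epidermal growth factor receptor (EGFR), tumour necrosis factor and other proteins from the cell surface, and it needs the iRhom proteins (Rhbdf1, Rhbdf2) and Frmd8 to reach that surface.

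The knockout skin libraries held 12575661 to 13940371 expected counts and the knockout epidermis libraries 13413782 to 15466317. Values are given in CPM, the usual count per fixed library size, with 1 TMM scaling over all 12 libraries, in the order of replicates 1, 2 and 3. Mitochondrial transcripts took 2.06 to 2.89% of the counts in knockout skin and 6.23 to 10.5% in knockout epidermis, against 3.85 to 4.34% in wild type skin and 2.0 to 3.3% in wild type epidermis. Libraries of a group differed in their reads from 4 Y-linked genes, with 1728, 0 and 1034 in knockout skin and 1781, 213 and 679 in knockout epidermis. Xist, which silences an X chromosome in female cells, gave 0, 430 and 319 reads in knockout skin and 0, 2511 and 2050 in knockout epidermis, so the libraries of neither knockout group were all repeats of 1 RNA sample. Skin KO replicate 3 and Epidermis KO replicates 2 and 3 held both Xist and Y-linked reads. Whether each library is from 1 animal was not tested. All 6 wild type libraries had 0 Y-linked reads and 660 to 3222 of Xist, so each difference between genotypes also sets libraries without Y-linked reads against knockout libraries of which 5 of 6 had them. Wild type skin libraries differed among themselves too, with summed levels of the skeletal muscle genes of 103929, 13653.6 and 34440.5 CPM. Here and below, a difference between genotypes is one in the tissue difference (epidermis minus skin), knockout minus wild type. With the Y-linked share as a covariate 2198 genes had such a difference in place of 2539. That share was 0 in all 6 wild type libraries, so its effect was estimated from the knockout libraries alone. The fit therefore cannot fully separate genotype from Y-linked reads. A pair of libraries stood apart, counting genes of at least 10 CPM that were at least 5 times as high in 1 library as in each of the other 5. Epidermis KO replicate 2 had 34 such genes and Skin KO replicate 1 had 16, and the other 4 libraries had 0. The 34 were led by Bpifa2 (0, 561 and 33.3 CPM in knockout epidermis), Krt4 (3.0, 372 and 43.2), Krt13 (0.158, 337 and 37.1), Cbr2 (303 CPM in replicate 2 and at most 59.6 in the other 5 libraries) and Amy1 (0.079, 263 and 14.6). Bpifa2, Krt4, Krt13 and Amy1 are known from salivary gland and mucosal epithelia, and Epidermis KO replicate 3 was the next highest for each of these 4. Most of the 16 were keratin-associated proteins of the hair shaft. Each list count of 2 or more below that changed by over 1.5 times without 1 library is given without it.

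**Figure D1:**
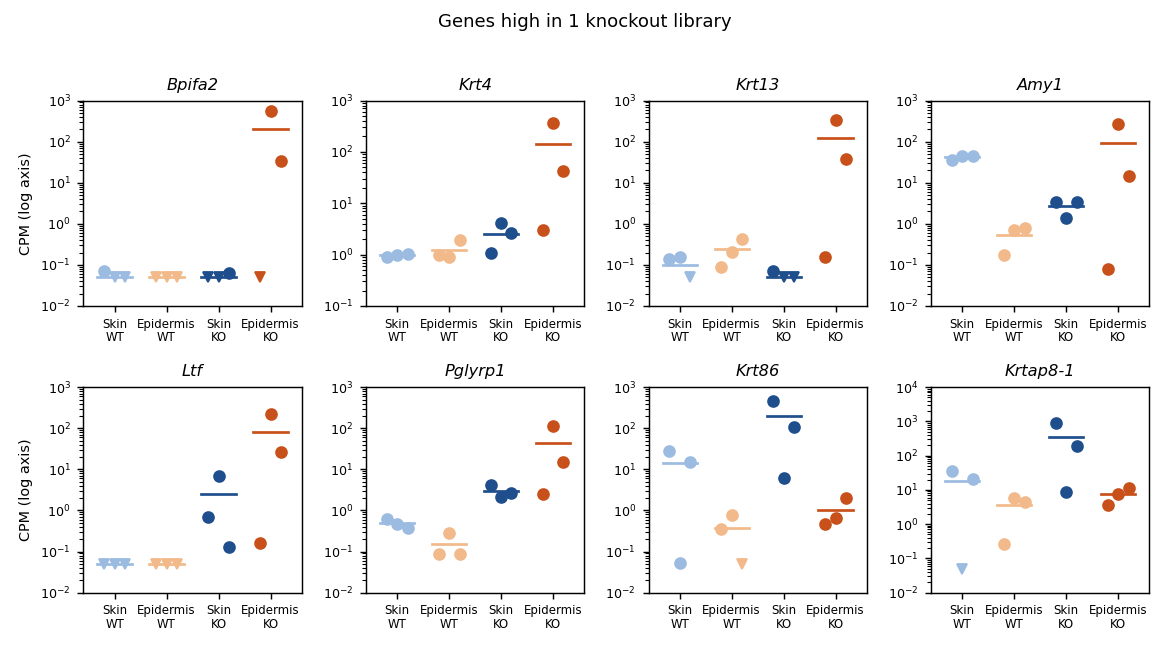
CPM on a log axis in each library for 6 genes high in Epidermis KO replicate 2 and for 2 hair shaft genes high in Skin KO replicate 1. Points are replicates 1, 2 and 3 from left to right, lines are group means, and triangles are values under 0.05 CPM, drawn at 0.05. Bpifa2 reached 561 CPM in Epidermis KO replicate 2 and was at 0 in replicate 1.

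Adam17 (chromosome 12) was read in all knockout libraries. It gave 41.6, 52.1 and 52.5 CPM in skin and 48.4, 58.1 and 47.3 CPM in epidermis, and the wild type libraries gave 72.3, 96.3 and 94.1 CPM in wild type skin and 78.9, 86.4 and 79.4 CPM in wild type epidermis. Every knockout library lay below every wild type library. Between the knockout tissues the values overlapped, with a log2 difference 0.068 ± 0.13, adjusted p = 0.724 (± SE, 3 libraries in each group, as in all log2 differences below). The tables count reads over the whole gene, so transcripts that lack the deleted exons are counted too.

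In knockout epidermis 1989 genes were higher than in knockout skin (14.1% of the 14117 tested) and 2238 were lower (15.9%), at an adjusted p below 0.05 by the quasi-likelihood test of edgeR (Benjamini-Hochberg adjusted). The median log2 difference of all tested genes, epidermis minus skin, was 0.0082. Without Skin KO replicate 3 the count of both directions together fell from 4227 (29.9% of those tested) to 2328, and it was 3075 without Epidermis KO replicate 2 and 3382 without Skin KO replicate 1. The groups did not overlap, whatever the test, for 24.3% of genes on the higher side and 23.6% on the lower side. In wild type 17.6% of tested genes were higher in epidermis and 25.3% lower. The difference between genotypes was positive for 10.1% of tested genes and negative for 6.36%. List counts below are to be read against these shares. The highest mean TPM (a transcript share that corrects for length) in knockout skin were those of S100a9 (22616), Krtdap (22067) and Sprr2a2 (15509.8), and in knockout epidermis those of mt-Atp8 (31878) and mt-Co1 (26323). The largest differences were taken among called genes without overlap between the groups and with at least 10 CPM in the higher group. Among these the largest falls were in genes of skeletal muscle, fat and the hair shaft. The largest rises were in Krt2, globins, immediate early genes and Skint genes. Throughout, a lower level in epidermis can mean fewer cells of a type or less RNA per cell, which bulk libraries cannot tell apart.

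**Figure D2:**
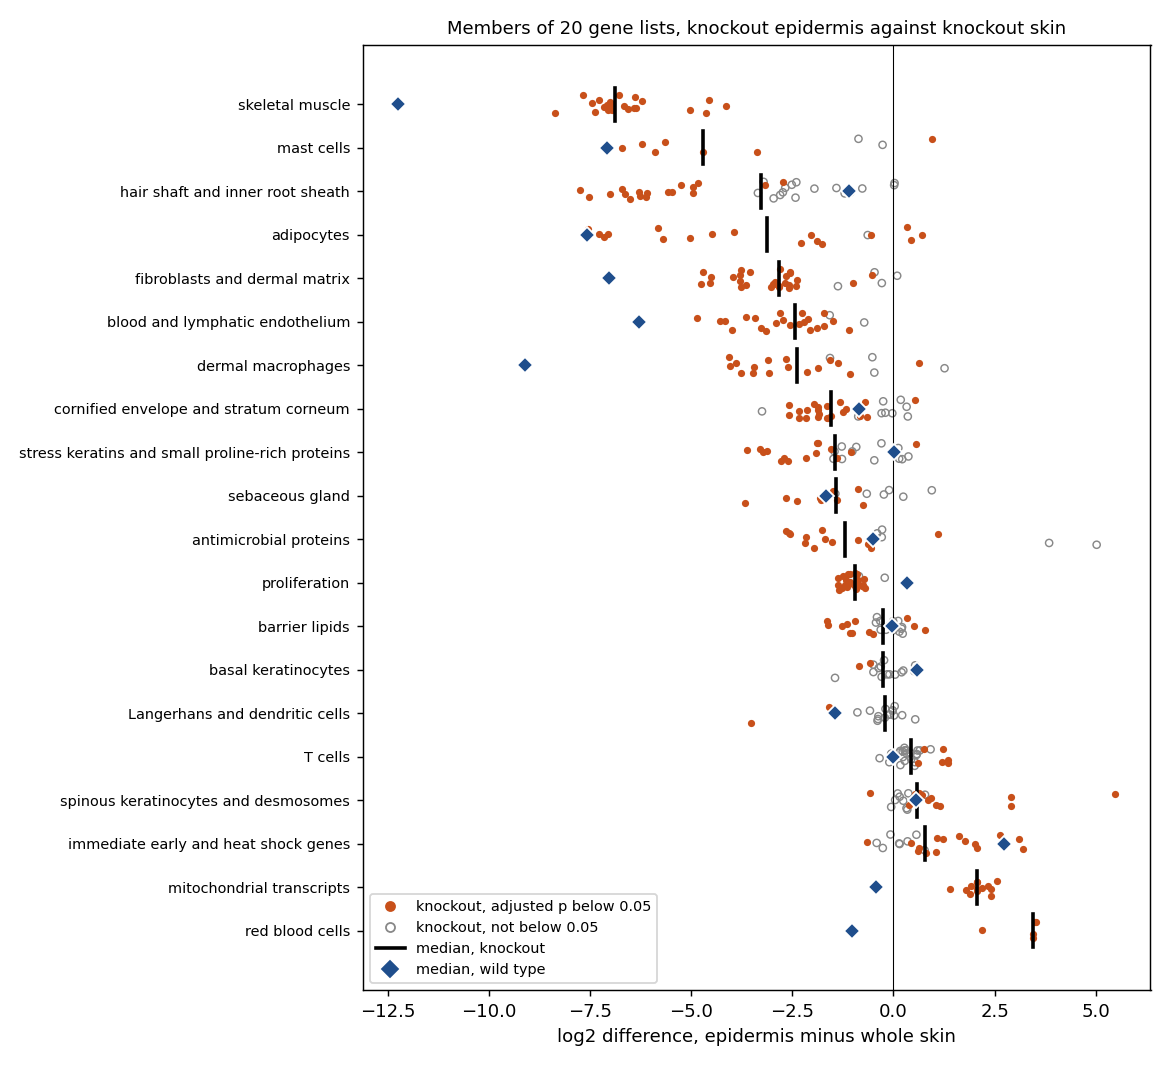
Each point is the log2 difference of 1 gene, knockout epidermis minus knockout skin, for the tested members of 20 gene lists; filled points passed an adjusted p of 0.05, the black bar is the list's median in knockout and the diamond its median in wild type. Genes with 0 to 3 reads in epidermis stand at their fitted values. Dermal lists lie to the left in both genotypes, with the wild type median further left.

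Genes of the dermis were lower in knockout epidermis but were still read there. Of 32 tested genes of fibroblasts and dermal matrix 28 fell and 0 rose, with a median log2 difference of -2.83. The summed level of the list was 1930.1 to 3578 CPM in knockout skin and 855 to 938 in knockout epidermis, and no member was at 0 reads in all 3 epidermis libraries. In wild type the sum was 4228 to 5479 CPM in skin and 339 to 534 in epidermis, so part of it was read in epidermis of both genotypes. Col1a1, the main fibrillar collagen of dermis, gave 129, 149 and 316 CPM in skin and 17.2, 19.5 and 6.99 CPM in epidermis (log2 difference -3.78 ± 0.49, adjusted p = 0.00323). Lum, a collagen-binding proteoglycan, gave 19.7, 30.6 and 39.8 CPM in skin and 0.711, 2.71 and 0.565 CPM in epidermis (log2 difference -4.52 ± 0.55, adjusted p = 0.00281). Twist2, a transcription factor of dermal fibroblasts, gave 1.63, 2.64 and 2.6 CPM in skin and 0.079, 0.0797 and 0.0706 CPM in epidermis, and with 3 reads over the epidermis group it was 30.2-fold lower in pooled reads per scaled library size, with a 95% counting interval of 10.0 to 149. No epidermis library reached a skin library for any of these 3. Sparc, which binds collagen, fell by 2.91 on the log2 scale, and Col6a1 and Col6a2, subunits of microfibrillar collagen, by 2.98 and 3.64. In wild type the list had 31 of 33 lower and a median of -7.05, and 21 of 33 members had a tissue difference that was significantly more positive in knockout by the test of the difference.

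Vessels, fat, muscle and mast cells followed the same direction. Of 24 endothelial genes 22 fell (median -2.44), 14 without Skin KO replicate 3. Kdr, a receptor for vascular endothelial growth factor, gave 3.83, 1.71 and 2.35 CPM in skin and 0.158, 0.159 and 0.0706 CPM in epidermis, and Ccl21a, the chemokine of lymphatic vessels, gave 29.4, 21.8 and 20.5 CPM in skin and 0.158, 1.91 and 0.424 CPM in epidermis. Both were lower in every epidermis library than in any skin library, with log2 differences of -4.28 and -4.85 (adjusted p = 0.00284 and 0.00287). Of 18 adipocyte genes 14 fell and 3 rose, 1 and 1 of them without Skin KO replicates 2 and 3, and Cfd, the serine protease adipsin, gave 203, 80.1 and 170.0 CPM in skin and 0.158, 1.99 and 0.283 CPM in epidermis (log2 difference -7.56 ± 0.72, adjusted p = 0.00166). All 22 tested skeletal muscle genes fell, with a median of -6.88, or -6.89 with the gene of few reads set to its bound, and Acta1, skeletal actin, gave 687, 230.1 and 138 CPM in skin and 1.82, 4.7 and 1.48 CPM in epidermis. Of the 10 smooth muscle and pericyte genes tested 9 fell, and Notch3 alone rose (log2 difference 0.98 ± 0.096, adjusted p = 0.00181). Cpa3, a mast cell protease, gave 6.67, 16.5 and 11.5 CPM in skin and 0.079, 0.239 and 0 CPM in epidermis (log2 difference -6.70 ± 0.66, adjusted p = 0.00181), and 6 of 9 mast cell genes fell. Hpgds, the prostaglandin D synthase also made in other cells, rose in the same list (log2 difference 0.95 ± 0.14, adjusted p = 0.00409).

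Genes with no reads in knockout epidermis allow only a bound. Ckmt2, the mitochondrial creatine kinase of muscle, had 32.2, 12.5 and 4.19 CPM in skin and 0 in each epidermis library, and was at least 208-fold lower in pooled reads per scaled library size against 3 reads over the epidermis group. Mup18, a urinary protein, had 10.2, 7.07 and 14.1 CPM in skin and 0 in epidermis, at least 139-fold lower on the same floor. The other genes among the 15 largest falls, by the rule for named genes, were Myot, Myh1, Cyp2e1, Krtap4-9, Des, Mup10, Krt34, Trdn, Myl1, Krtap26-1, Cfd, Krt86 and Atp2a1. The Mup genes are near-identical copies, so the split of reads between them is uncertain.

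More genes of the spinous layer rose than fell. Of 22 tested, 12 were higher in knockout epidermis and 1 lower (median 0.57). Krt10, a keratin of suprabasal cells, gave 13459.6, 16339 and 14261 CPM in skin and 38669, 28367 and 31242 CPM in epidermis (log2 difference 1.15 ± 0.28, adjusted p = 0.0207), with an adjusted p of 0.103 without Skin KO replicate 3. Krt1, its partner, gave 16230.1, 18123 and 15546 CPM in skin and 38450.3, 23555 and 24009.6 CPM in epidermis and did not pass the test (adjusted p = 0.0956, and 0.000301 in DESeq2). Dsg1a, a desmosomal cadherin, gave 520.2, 381 and 437 CPM in skin and 811, 1055 and 893 CPM in epidermis (log2 difference 1.04 ± 0.15, adjusted p = 0.00438) and Dsc3, another, 636, 555 and 638 CPM in skin and 1149.5, 1197 and 1161 CPM in epidermis (log2 difference 0.93 ± 0.10, adjusted p = 0.00216). Dsp, the desmosome's plaque protein, gave 2459, 2237 and 2507 CPM in skin and 4100.3, 4478 and 4575 CPM in epidermis (log2 difference 0.86 ± 0.14, adjusted p = 0.00544). For these 5 genes every epidermis library was above every skin library. Krt77, a keratin related to Krt1, rose by 2.91 on the log2 scale (adjusted p = 0.0111), with 1918, 6662 and 7081 CPM in epidermis and 564, 394 and 1115 in skin. Krt2 was the largest rise under the rule for named genes, from 0.142, 0.143 and 0.634 CPM to 6.17, 33.4 and 3.81, highest in Epidermis KO replicate 2 (log2 difference 5.47 ± 1.09, adjusted p = 0.0109), and its adjusted p was 0.0971 in limma-voom. Skint5 and Skint7, relatives of the gene that selects the T cells of mouse epidermis, rose by 2.92 and 3.19 (adjusted p = 0.00915 and 0.00476).

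The tissue difference of some basal layer genes was unlike in the 2 genotypes. In knockout 2 of 16 basal genes were lower and 0 higher, with 5 lower without Epidermis KO replicate 3, 1 lower and 2 higher without Epidermis KO replicate 1, and 1 lower and 0 higher without any other single library, and in wild type 7 were higher and 0 lower. The 2 falls in knockout were near the share of all tested genes that fell, 15.9%. The test of the difference was negative for 7 members and positive for 1. Itga6, an integrin of the hemidesmosome, fell to 107, 118 and 150.0 CPM from 201, 237 and 235 (log2 difference -0.85 ± 0.14, adjusted p = 0.00575). Krt14, the main basal keratin, gave 8355, 11482 and 9015 CPM in skin and 8429.8, 5539.8 and 6557 CPM in epidermis, which overlapped (log2 difference -0.50 ± 0.24, adjusted p = 0.158, and 0.0183 in DESeq2), against a wild type log2 difference of 1.13 (adjusted p = 0.00507) and a difference between genotypes of -1.65 (adjusted p = 0.00508).

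Late differentiation genes moved the opposite way to the spinous ones. Of 31 cornified envelope and stratum corneum genes 21 fell and 1 rose, with a median of -1.55, and 15 to 21 fell when each library was left out. Lce1f, a late cornified envelope protein, gave 90.0, 74.5 and 64.3 CPM in skin and 9.09, 12.2 and 16.9 CPM in epidermis (log2 difference -2.59 ± 0.24, adjusted p = 0.0016). Rptn, a filaggrin-family protein, gave 1226, 2030.3 and 1441 CPM in skin and 374, 387 and 290.2 CPM in epidermis (log2 difference -2.16 ± 0.21, adjusted p = 0.00186). Cnfn, cornifelin, gave 574, 571 and 507 CPM in skin and 207, 209 and 149.9 CPM in epidermis (log2 difference -1.55 ± 0.14, adjusted p = 0.0016), and Asprv1, the protease that processes profilaggrin, gave 1516, 1691 and 1535 CPM in skin and 640.1, 610.0 and 653 CPM in epidermis (log2 difference -1.32 ± 0.10, adjusted p = 0.00151). Every epidermis library lay below every skin library for these 4 genes. In wild type the list fell too, with 16 of 31 genes lower, 2 higher and a median of -0.85. The difference between genotypes was negative for 6 of the 31, positive for 0 and did not pass for 25. Cnfn and Asprv1 did not pass the test in wild type (log2 differences of 0.41 and -0.27, adjusted p = 0.399 and 0.369). Their difference between genotypes was -1.98 (adjusted p = 0.0129) and -1.07 (adjusted p = 0.0138). Barrier lipid genes fell for 9 of 26 and rose for 3, with 1 rise without Epidermis KO replicate 2 or 3 or Skin KO replicate 1 or 3. Elovl4, which elongates the fatty acids of acylceramides, gave 1549, 1712 and 1506 CPM in skin and 816, 615 and 742 CPM in epidermis (log2 difference -1.14 ± 0.13, adjusted p = 0.00261), and Cers4, a ceramide synthase, 499, 640.5 and 467 CPM in skin and 177, 115 and 234 CPM in epidermis (log2 difference -1.62 ± 0.25, adjusted p = 0.00515).

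**Figure D3:**
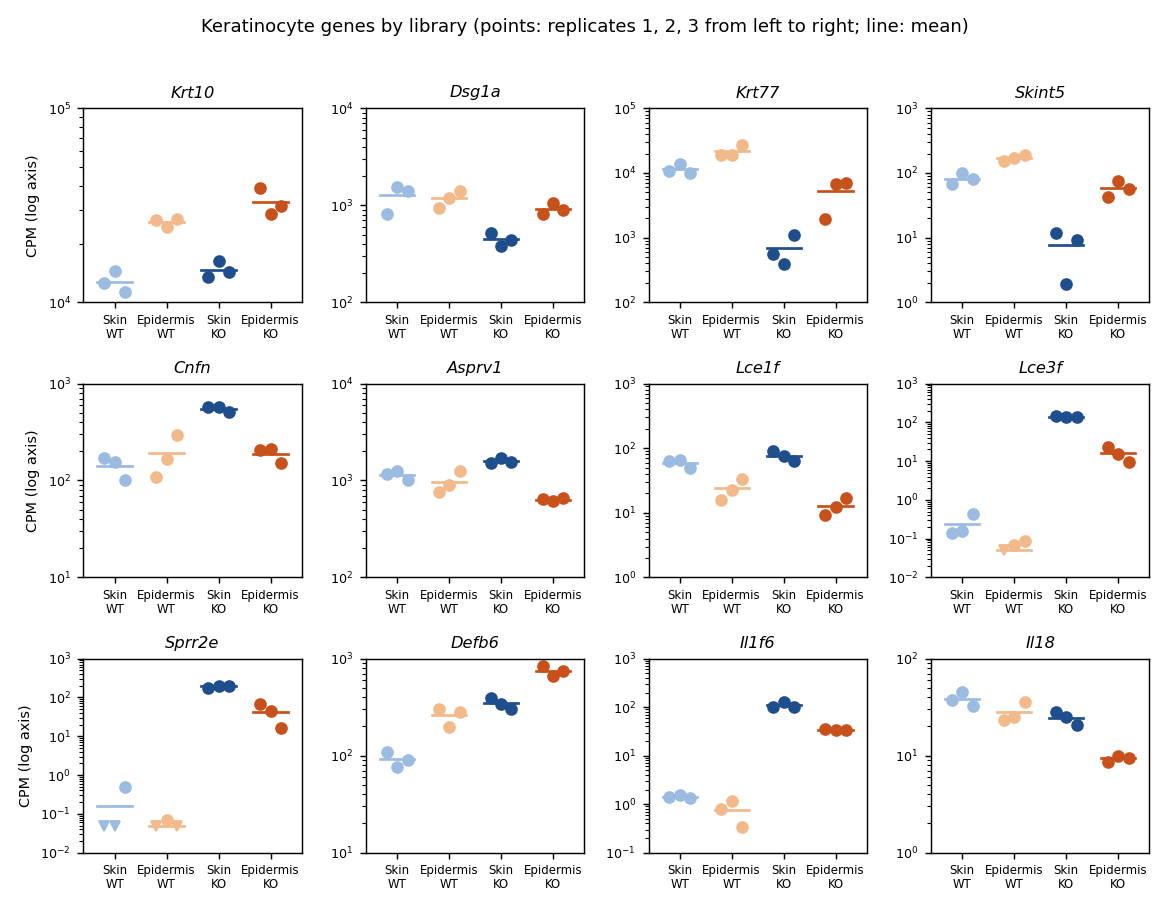
CPM on a log axis in all 12 libraries for 12 genes of keratinocytes. Points are replicates 1, 2 and 3 from left to right, lines are group means, and triangles are values under 0.05 CPM, drawn at 0.05. The upper 4 genes were higher in knockout epidermis than in knockout skin, and Cnfn, Asprv1, Lce1f, Lce3f, Sprr2e, Il1f6 and Il18 were lower.

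Many genes of the same path that are typical of wounded skin were lower too, but their summed level overlapped between the tissues. Lce3f, among those that fell, was near 0 in wild type. Of 27 genes of the stress keratin, Lce3 and small proline-rich lists 14 fell, 1 rose and 12 did not pass (median -1.46). Their summed level was 21366, 31165 and 24163 CPM in skin and 26397, 19025 and 13362 CPM in epidermis. Lce3f, a cornified envelope protein of injured and inflamed skin, gave 143, 140.4 and 134 CPM in skin and 23.4, 15 and 9.75 CPM in epidermis (log2 difference -3.12 ± 0.29, adjusted p = 0.0016), and 0.14, 0.157 and 0.425 CPM in wild type skin and 0, 0.0689 and 0.0864 CPM in wild type epidermis. All 6 Lce3 genes fell by 2.72 to 3.63 on the log2 scale. Sprr2e gave 176, 200.1 and 202 CPM in skin and 68.1, 45.7 and 16.2 CPM in epidermis (log2 difference -2.16, adjusted p = 0.0119), Sprr2b -2.60 (adjusted p = 0.00363) and Sprr2h -1.86 (adjusted p = 0.0119). Sprr2a2 gave 5729, 6816 and 5967 CPM in skin and 11209.6, 6503 and 6286 CPM in epidermis, which overlapped, with a log2 difference of 0.37 (adjusted p = 0.335), and Sprr2a1 and Sprr2a3 did not pass either (0.12 and 0.22). Sprr2 genes are near-identical copies, and Sprr2a1, Sprr2a2 and Sprr2a3 hold almost the same letters, so how reads were split among them is uncertain.

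Promoter sequences of 4 Sprr2 genes are shown because members of the family differed in whether they fell. The stretches run from 220 to 121 bases before the start, 5′ to 3′ on the plus strand of chromosome 3 (GRCm38.p6, from RefSeq), and capitals mark TGAGTCA or its complement TGACTCA, the motif bound by AP-1 dimers of Fos and Jun proteins.
Sprr2b (chr3:92316485-92316584): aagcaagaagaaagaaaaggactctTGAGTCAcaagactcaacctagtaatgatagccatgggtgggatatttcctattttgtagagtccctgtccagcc
Sprr2e (chr3:92351923-92352022): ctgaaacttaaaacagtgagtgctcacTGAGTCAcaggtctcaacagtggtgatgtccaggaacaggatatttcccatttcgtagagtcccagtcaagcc
Sprr2h (chr3:92385465-92385564): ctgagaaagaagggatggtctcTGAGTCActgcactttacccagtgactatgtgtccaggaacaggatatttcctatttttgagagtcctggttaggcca
Sprr2a2 (chr3:92250427-92250526): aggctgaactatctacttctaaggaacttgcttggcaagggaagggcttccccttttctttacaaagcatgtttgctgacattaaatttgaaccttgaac
In the 250 bases before the start, 7 of the 10 Sprr2 genes with an entry held the motif on either strand, against 4.46% of all 32851 promoter entries. The Sprr2 promoters resemble each other as copies, so these 10 are not independent entries. The 7 were Sprr2b, Sprr2d, Sprr2e, Sprr2f, Sprr2h, Sprr2i and Sprr2k, and their log2 differences ran from -2.60 to -1.28, of which Sprr2f and Sprr2k did not pass the test. Sprr2d and Sprr2i passed (adjusted p = 0.0335 and 0.0366), but neither passed without Epidermis KO replicate 2 (0.0993 and 0.0945) or without Skin KO replicate 1 (0.0534 and 0.0649), 2 (0.0911 and 0.0799) or 3 (0.0848 and 0.0969). The 3 without it were Sprr2a1, Sprr2a2 and Sprr2a3, whose differences ran from 0.12 to 0.37. The stretches of Sprr2a1 and Sprr2a2 had 0 differing bases. A match is a description of letters, and no use of it was measured here.

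Antimicrobial genes, mostly secreted by keratinocytes, fell for 12 of 18 and rose for 1, with 8 falls and 3 rises without Epidermis KO replicate 1, 5 falls without replicate 2, 7 without replicate 3, and 6 and 7 without Skin KO replicates 2 and 3. Slpi, an inhibitor of leukocyte protease, gave 118, 75 and 86.6 CPM in skin and 26.3, 25.7 and 10.6 CPM in epidermis (log2 difference -2.17 ± 0.35, adjusted p = 0.00544) and Wfdc18 gave 35.8, 31.1 and 22.8 CPM in skin and 3.79, 5.66 and 5.72 CPM in epidermis (log2 difference -2.56 ± 0.23, adjusted p = 0.0016). Defb6, a beta-defensin, gave 394, 341 and 305 CPM in skin and 836, 663 and 755 CPM in epidermis (log2 difference 1.11 ± 0.13, adjusted p = 0.00269), the reverse order. S100a8 and S100a9, the calprotectin subunits, gave 4278, 2354 and 1329 and 6607, 3722 and 1986 CPM in epidermis against 3197, 3243 and 3253 and 5164, 5784 and 5268 in skin and did not pass (adjusted p = 0.593 and 0.475). In the interleukin 1, 36 and 20 families 7 of 19 fell and 2 rose. Il1f6, interleukin 36 alpha, gave 103, 129.9 and 102 CPM in skin and 34.9, 33.6 and 34.3 CPM in epidermis (log2 difference -1.71 ± 0.11, adjusted p = 0.00151), and Il18, activated by the inflammasome, 28, 25.3 and 20.9 CPM in skin and 8.62, 9.96 and 9.53 CPM in epidermis (log2 difference -1.40 ± 0.14, adjusted p = 0.002). Il20ra and Il20rb, the receptor chains for interleukins 19, 20 and 24, rose by 1.45 and 0.96 (adjusted p = 0.00404 and 0.00153).

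The cytokines of interleukin 17 producing lymphocytes were higher in the epidermis. Il17a gave 12.3, 4.36 and 6.85 CPM in skin and 52.5, 52.9 and 26.8 CPM in epidermis (log2 difference 2.48 ± 0.41, adjusted p = 0.00613), Il17f gave 19.7, 11.3 and 9.83 CPM in skin and 45.9, 50.4 and 27.1 CPM in epidermis (log2 difference 1.59 ± 0.32, adjusted p = 0.0114), and Il22, which acts on keratinocytes, gave 0.851, 0.143 and 0.317 CPM in skin and 5.53, 4.78 and 2.9 CPM in epidermis (log2 difference 3.31 ± 0.55, adjusted p = 0.00607). The lowest epidermis library was above the highest skin library for all 3. Il17a lies on chromosome 1 from 20730905 to 20734496 (GRCm38), and its wild type values were 0.07, 0 and 0 CPM in skin and 0, 0 and 0.0864 in epidermis. Of 13 tested genes in the list for these lymphocytes 4 rose, Zbtb16, the transcription factor of innate-like T cells, among them (log2 difference 1.59 ± 0.32, adjusted p = 0.0114). Il23a, a subunit of interleukin 23 that was also on the list, fell (log2 difference -1.23 ± 0.24, adjusted p = 0.0107). Of the 28 T cell genes 6 rose and 0 fell, with 3, 3 and 0 rises without Skin KO replicates 1, 2 and 3 and 2 without Epidermis KO replicate 2. Trdc, the constant chain of gamma-delta receptors, gave 23.3, 39.8 and 35.7 CPM in skin and 44.3, 59.8 and 30.2 CPM in epidermis and did not pass (adjusted p = 0.276). Among the responses 5 of 12 rose. Il17rc, a chain of the interleukin 17 receptor, rose by 0.84 (adjusted p = 0.0019) with 224, 206 and 214 CPM against 129, 119 and 110.5, and 2, 2 and 2 rose without Skin KO replicates 1, 2 and 3, and 3 and 3 without Epidermis KO replicates 1 and 2. Neutrophil genes did not pass for 17 of 18. Cxcr2, their chemokine receptor, rose from 30.8, 25.3 and 29.6 to 68.1, 53.4 and 44.2 CPM (log2 difference 0.94 ± 0.17, adjusted p = 0.0072), and the summed level of the list was 5536 to 11279.7 CPM in epidermis and 4932 to 6399 in skin.

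**Figure D4:**
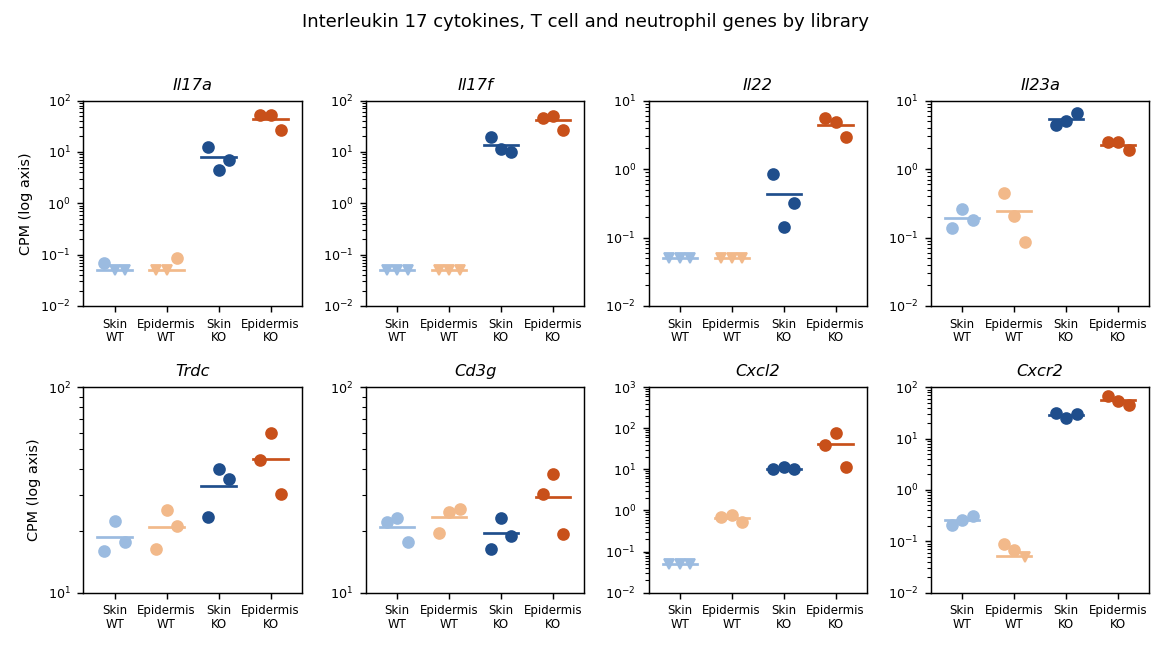
CPM on a log axis in each library for the cytokine genes Il17a, Il17f, Il22 and Il23a, T cell genes (Trdc, Cd3g) and neutrophil genes (Cxcl2, Cxcr2). Points are replicates 1, 2 and 3 from left to right, lines are group means, and triangles are values under 0.05 CPM, drawn at 0.05. Il17a, Il17f and Il22 were at or near 0 in wild type and higher in each knockout epidermis library than in any knockout skin library.

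Most dermal macrophage genes fell, though their summed level overlapped, while most Langerhans and dendritic cell genes did not pass the test. Of 20 dermal macrophage genes 15 fell and 1 rose (median -2.37), 9 without Epidermis KO replicate 1 and 9 without Skin KO replicate 3. The summed level of the list was 345, 438 and 583 CPM in knockout skin and 325, 606 and 343 in knockout epidermis. In wild type epidermis it was 509 to 583 CPM. F13a1, a clotting factor subunit made by macrophages, gave 15.5, 16.2 and 37.5 CPM in skin and 1.26, 2.07 and 0.918 CPM in epidermis (log2 difference -4.03 ± 0.47, adjusted p = 0.00253) and Clec10a, a lectin of dermal macrophages, 4.97, 7.21 and 17.3 CPM in skin and 0.949, 0.877 and 0.353 CPM in epidermis (log2 difference -3.77 ± 0.59, adjusted p = 0.00516). In wild type the median of the list was -9.12 and 15 of 20 genes had a positive difference between genotypes. Stab1, a scavenger receptor, gave 18.9, 27.4 and 28 CPM in skin and 21.7, 15.7 and 14.5 CPM in epidermis, which overlapped, and 20.3, 17.1 and 18.9 CPM in wild type skin and 0.353, 0.0689 and 0 CPM in wild type epidermis. Of the 17 Langerhans and dendritic cell genes 2 fell and 0 rose; Cd207, langerin, gave a log2 difference of 0.21 (adjusted p = 0.675), 5 genes of the list fell without Epidermis KO replicate 1, and in wild type 15 of 15 fell. Cd209a, a lectin of dermal dendritic cells, fell to 0.079, 0.239 and 0.141 CPM from 1.35, 1.93 and 2.28 (log2 difference -3.53 ± 0.46, adjusted p = 0.00325). Complement genes fell for 7 of 13 and Cd55, the decay-accelerating factor, rose (log2 difference 1.45 ± 0.28, adjusted p = 0.00945). Ccl8 and Ccl11, chemokines of type 2 recruitment, fell by 2.04 and 1.59, while Ccr4, a receptor on T helper cells of that type, rose by 1.43 (adjusted p = 0.00694).

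Most immediate early genes rose in both genotypes, and 2 of the 7 heat shock genes of the same list rose in each. Of 23 tested genes of both kinds 14 rose in knockout epidermis and 1 fell (median 0.77), and 16 rose in wild type (median 2.73). For 15 the tissue difference was unlike in the 2 genotypes, all in the negative direction. The 16 immediate early genes had 12 rises and 1 fall in knockout (median 1.16), 14 rises in wild type (median 4.04) and 14 negative differences, and the 7 heat shock genes 2, 2 and 1, with 1 fall in wild type. Dnajb1, a co-chaperone, and Hspb1, a small heat shock protein, were the 2 that rose in knockout, by 0.64 and 0.60 (adjusted p = 0.00281 and 0.0194), and Hspb1 did not pass without Epidermis KO replicate 2 (0.0595) or 3 (0.0527) or Skin KO replicate 3 (0.0713). Fos gave 148, 152 and 179 CPM in skin and 757, 1185 and 1059.8 CPM in epidermis (log2 difference 2.64 ± 0.19, adjusted p = 0.00151), with a wild type difference of 5.78 and a difference between genotypes of -3.16 (adjusted p = 0.000226). Fosb rose by 3.10, Jun by 1.62 and Junb by 0.81 (adjusted p = 0.00281, 0.00273 and 0.00505). Atf3, a stress-induced factor of the same class, gave 32, 38.1 and 24.4 CPM in skin and 214, 369 and 280.0 CPM in epidermis (log2 difference 3.19 ± 0.25, adjusted p = 0.00151).

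Proliferation genes fell in the knockout epidermis. Of 26 tested 24 fell and 0 rose (median -0.96), while in wild type 8 rose and 0 fell (median 0.34). The difference between genotypes was negative for 21 of 26. Ccnb1, a mitotic cyclin, gave 37.7, 53.8 and 38.3 CPM in skin and 15, 17.2 and 17.9 CPM in epidermis (log2 difference -1.37 ± 0.16, adjusted p = 0.00257) and Cdk1, its kinase, 36.4, 62.3 and 43.6 CPM in skin and 18.7, 18.2 and 22.2 CPM in epidermis (log2 difference -1.27 ± 0.20, adjusted p = 0.0052), against 0.63 in wild type (adjusted p = 0.0145). The highest epidermis library lay below the lowest skin library for both.

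**Figure D5:**
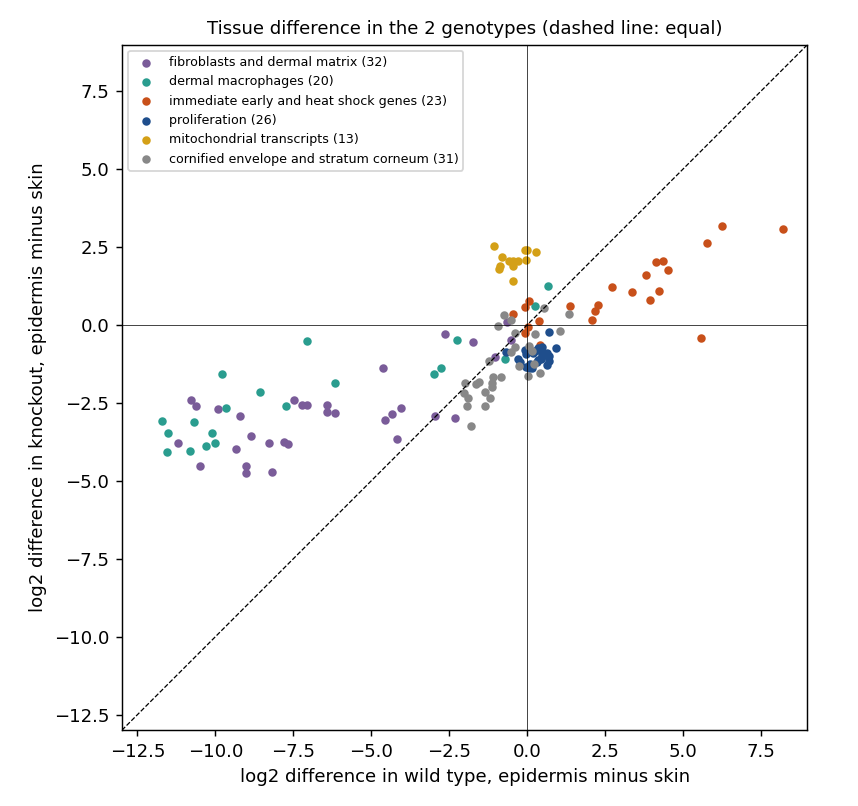
Log2 difference of epidermis minus skin in wild type (horizontal axis) and knockout (vertical axis) for the tested genes of 6 lists, with the dashed line where both are equal. Proliferation genes had median differences of 0.34 in wild type and -0.96 in knockout, and mitochondrial transcripts of -0.44 and 2.07.

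All 13 mitochondrial transcripts rose in knockout epidermis (median 2.07), and in wild type 0 rose and 1 fell. The summed level was 62363 to 124923 CPM in epidermis and 18406 to 25262 in skin, and the difference between genotypes passed for 13 of 13. The gene mt-Co3, for a subunit of cytochrome oxidase, gave 13795, 10622 and 6475 CPM against 2360.0, 1401 and 2036. The 4 nuclear gene models that copy mitochondrial sequence (Gm28661, Gm28437, Gm29216 and Gm10925) were among the 10 highest in TPM in epidermis, and shared reads make them uncertain. The 5 tested red blood cell genes also rose, 3 without Skin KO replicate 3. Hbb-bs, a beta-globin, gave 21.9, 46.3 and 41 CPM in skin and 449, 694 and 100.01 CPM in epidermis (log2 difference 3.51 ± 0.68, adjusted p = 0.00979), with Epidermis KO replicate 3 the lowest. With mitochondrial genes left out of the fit, 4207 genes were called in place of 4227, and any other part of these 2 lists in the results was not tested.

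Follicle and gland genes fell in part. Of 16 sebaceous gland genes 10 fell, 9 to 11 with a library left out. Awat1, a wax synthase, gave 163, 211 and 147 CPM in skin and 31, 19.6 and 32.1 CPM in epidermis (log2 difference -2.66 ± 0.22, adjusted p = 0.00151) and Elovl3, a fatty acid elongase, 479, 735 and 472 CPM in skin and 122, 75.2 and 127 CPM in epidermis (log2 difference -2.38 ± 0.26, adjusted p = 0.00214). Hair shaft and inner root sheath genes fell for 18 of 34 with a median of -3.28, but the summed levels of 11775, 410.4 and 3228 CPM in skin and 173, 579.8 and 1029.8 in epidermis overlap, Skin KO replicate 2 lying within the range of epidermis. The count was 0, 0 and 5 without Epidermis KO replicates 1, 2 and 3, 10 and 8 without Skin KO replicates 1 and 3, and 0 in limma-voom. Cd34, a surface protein of the follicle bulge and of dermal cells, fell to 5.85, 8.29 and 5.09 CPM from 34.1, 24.1 and 43.4 (log2 difference -2.41 ± 0.27, adjusted p = 0.00224). Melanocyte genes rose for 2 of 8, with the 3 epidermis libraries at 58, 235 and 258 CPM in sum. The melanocyte count was 7 without Epidermis KO replicate 1, 0 without Epidermis KO replicate 2 or 3 or Skin KO replicate 1 or 3, and 1 without Skin KO replicate 2.

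Partners and substrates of ADAM17 were higher in epidermis or did not pass the test. Of 20 genes for ADAM17, its partners and substrates 8 rose and 0 fell. Rhbdf1 gave 46.8, 42.2 and 47.5 CPM in skin and 71.1, 88.6 and 90.9 CPM in epidermis (log2 difference 0.87 ± 0.12, adjusted p = 0.00339) and Rhbdf2 76.6, 70.5 and 76.1 CPM in skin and 115, 124 and 124 CPM in epidermis (log2 difference 0.70 ± 0.077, adjusted p = 0.00222), while Frmd8 did not pass (log2 difference 0.17, adjusted p = 0.264). Il6ra, a receptor ADAM17 sheds, gave 50.2, 40.8 and 45.8 CPM in skin and 71.7, 103 and 99.4 CPM in epidermis (log2 difference 1.00 ± 0.16, adjusted p = 0.00505). Among EGFR ligands and receptors 5 of 12 rose and 4 fell, with 3 rises without Epidermis KO replicate 2 and 3 without Skin KO replicate 1. The ligands Ereg and Tgfa fell. Ereg gave 90.0, 81 and 97.5 CPM in skin and 25, 45.3 and 32.9 CPM in epidermis (log2 difference -1.38 ± 0.21, adjusted p = 0.00459), and Tgfa 91, 97 and 117 CPM in skin and 52.1, 60.6 and 41.8 CPM in epidermis (log2 difference -0.99 ± 0.16, adjusted p = 0.00531). Nrg1, a ligand of the ErbB3 receptor, fell by 1.10 in knockout (adjusted p = 0.007), against a rise of 2.01 in wild type (adjusted p = 0.0122) and a difference of -3.13 (adjusted p = 0.00284). The receptors Erbb2 and Erbb3 rose, with 141, 119.6 and 134 CPM in skin and 225, 249 and 244 CPM in epidermis for Erbb2 (log2 difference 0.86 ± 0.092, adjusted p = 0.00214) and a log2 difference of 0.64 for Erbb3 (adjusted p = 0.00385).

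The remaining lists held fewer changes or small groups. Of all tested genes 14.1% rose and 15.9% fell in knockout epidermis. The counts of upper follicle, type 2 immunity and Notch pathway genes were near these shares. Basement membrane genes fell for 10 of 17 and rose for 1, with 6 falls without Epidermis KO replicate 2 and 5 without Skin KO replicate 3. Col4a1, a collagen of basement membranes, gave 40.8, 39.3 and 50.4 CPM in skin and 7.03, 9.88 and 12.3 CPM in epidermis (log2 difference -2.16 ± 0.21, adjusted p = 0.00174). Matrix proteases and inhibitors fell for 7 of 14, and Mmp3, stromelysin, gave 14.6, 8.28 and 16.6 CPM in skin and 0.711, 1.35 and 0.212 CPM in epidermis (log2 difference -4.13 ± 0.53, adjusted p = 0.00317). Tight and gap junction genes rose for 3 and fell for 4 of 16, with 5 rises without Epidermis KO replicate 1 and 2, 1 and 1 falls without Epidermis KO replicate 3 and Skin KO replicates 2 and 3. Gjb5, a connexin, gave 44.1, 30.3 and 36.5 CPM in skin and 95.9, 95.4 and 91.7 CPM in epidermis (log2 difference 1.34 ± 0.14, adjusted p = 0.002), and Tjp3, a scaffold of tight junctions, 68.8, 61 and 62.3 CPM in skin and 139, 137 and 134 CPM in epidermis (log2 difference 1.09 ± 0.078, adjusted p = 0.00151). Upper follicle and stem cell genes rose for 2 and fell for 3 of 21, with 0 rises without Epidermis KO replicate 2 or 3 or Skin KO replicate 2 or 3. Type 2 immunity genes rose for 2 and fell for 4 of 18, with 1 rise and 2 falls without Skin KO replicate 3, 1 rise without any 1 epidermis library, and 2 falls without Epidermis KO replicate 1 or 3 or Skin KO replicate 2. Notch pathway genes rose for 2 and fell for 1 of 13, with 1 rise without Skin KO replicate 2 or 3. Paracrine factors and receptors rose for 3 and fell for 10 of 29, among them Igf1, the growth factor of fibroblasts, by 3.61 (adjusted p = 0.00186). Interferon response genes rose for 1 and fell for 1 of 14, with 0 rises and 3 falls without Epidermis KO replicate 2. Of the small lists, 3 of 8 Schwann cell genes fell (5 without Epidermis KO replicate 2), 1 of 4 dermal papilla genes and 1 of 2 B and plasma cell genes.

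Across all genes the 2 tissue comparisons, which share no libraries, gave partly the same calls. A total of 13584 genes were tested in both. Of these, 989 were higher in epidermis in both genotypes, which is 50.5% of the knockout calls and 40.2% of the wild type calls. Another 1349 were lower in both, 63.7% and 42.4%. A further 122 genes were called in opposite directions, 52 of them higher in knockout epidermis. The test of the difference itself called 2539 of 15394 genes (16.5%), 1560 in the positive direction (10.1%) and 979 in the negative (6.36%). Without single libraries that count was 1412 (Epidermis KO replicate 2), 1397 (Skin KO replicate 2), 1581 (Epidermis WT replicate 3), 1436 (Skin WT replicate 3) and 3940 (Skin WT replicate 1). In wild type alone 6260 of 14596 genes were called (42.9%), 17.6% higher and 25.3% lower.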

How the data were processed

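Messenger RNA libraries, made with a stranded kit from total RNA of skin or epidermis, were sequenced 3 per group in 4 groups. Per the submitters' processing notes, reads were demultiplexed with bcl2fastq 2.17, aligned with STAR 2.5.1 to mm10 and quantified with RSEM, with an annotation release and strand setting not given in the sources used here. The authors deposited 1 gene table per library with expected counts, which RSEM estimates and which need not be whole, and TPM, a length-corrected share that the authors scaled within each library. The deposited effective lengths served as offsets in 1 alternative.

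Expected counts were rounded and tested with edgeR 4.0.16 (R 4.3.3): TMM scaling, filterByExpr, quasi-likelihood test, Benjamini-Hochberg adjustment over all genes tested, threshold 0.05. The SE is the log2 difference divided by the square root of F. The knockout comparison used the 6 knockout libraries, and the difference between genotypes all 12. The scripts were tested on simulated data. Of 47643 gene identifiers 47224 matched GENCODE without their version. Alternatives were DESeq2 1.42.0, limma-voom (limma 3.58.1), 2 other scalings, effective lengths, no filter, the replicate block and each library left out. Leaving out mitochondrial genes, a robust fit and the Y-linked share as a covariate were added after seeing the data. Counting intervals and floors (3 counts, 0.19 to 0.239 CPM in a knockout library after scaling) cover counting error only.

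Genes were named by a rule: the 15 largest differences each way, up to 6 members of each of 40 lists by adjusted p, 10 genes by adjusted p of the difference between genotypes, up to 5 genes called in opposite directions, the 10 highest mean TPM, and Adam17 with its partners. The comparison and the lists were chosen with earlier results of these data known. Bpifa2, Krt4, Krt13, Cbr2, Amy1, Col1a1, Jun, Cd207, Trdc, Dnajb1, Hspb1 and the Sprr2 genes were named after their values were seen. Some genes that the rule names are not reported here.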

Additional observations from a re-analysis of the deposited data

Results flagged for a closer look

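The tissue difference was unlike in the 2 genotypes for 2539 genes by the interaction test (edgeR, adjusted p below 0.05). The 10 named genes with the smallest adjusted p had these differences in log2 tissue difference, knockout minus wild type. Junb, a subunit of AP-1, had -3.15, with 0.81 in knockout and 3.94 in wild type. Myc, a growth regulator, had -2.23, with -0.14 and 2.06. Ass1, of arginine synthesis, had -2.21, with -0.86 and 1.32, opposite calls. Pglyrp4, a peptidoglycan recognition protein, had -2.98, with -0.62 and 2.34, and its knockout call was lost without Epidermis KO replicate 2 (adjusted p = 0.105), Epidermis KO replicate 3 (0.0928), Skin KO replicate 2 (0.103) or Skin KO replicate 3 (0.143). The other 6 had positive differences. Cd36, a fatty acid receptor, had 5.32 (-2.46 in knockout, -7.80 in wild type), Stab1 6.52 (-0.52 and -7.06), Fgl2 6.85 (-0.43 and -7.30), Eepd1 4.25 (-0.15 and -4.43), Zcchc24 4.84 (-1.48 and -6.34) and Gypc 4.74 (-1.15 and -5.91).

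The other 3 genes were called in opposite directions. Rab31, a small GTPase, had 2.40, with 0.43 in knockout and -1.99 in wild type. Mt2, a metallothionein, had -3.26, with -0.74 and 2.5, from 192, 230.0 and 189.8 CPM in knockout skin to 117, 114 and 137 in knockout epidermis. Rac3, another small GTPase, had -1.82, with -0.57 and 1.22. The knockout call of Rab31 (adjusted p = 0.0478) was lost without Epidermis KO replicate 1 (0.108) or 2 (0.111) or Skin KO replicate 1 (0.0819), 2 (0.135) or 3 (0.114). That of Rac3 (adjusted p = 0.0208) was lost without Epidermis KO replicate 2 (0.0558) or Skin KO replicate 2 (0.0615) or 3 (0.0779), and that of Gypc (adjusted p = 0.0208) without Epidermis KO replicate 1 (0.057) or 3 (0.0641) or Skin KO replicate 2 (0.0596) or 3 (0.0866).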

How the results depend on the processing

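Of 229 named genes called in the knockout comparison, 175 kept direction and call in each alternative run, and 0 of 242 named genes reversed. Under DESeq2, RLE scaling, scaling without structural genes, no filter and effective lengths 1, 1, 0, 5 and 9 of the 229 were not called, and under limma-voom, the robust fit, the fit of all 12 libraries and the Y-linked covariate 21, 13, 8 and 11. Calls in knockout were 3707 to 4267 in these alternatives. Leaving out 1 library gave 2328 to 3561 calls in knockout, 4198 to 7830 in wild type and 1397 to 3940 for the difference between genotypes, where DESeq2 gave 3422 and the Y-linked covariate 2198.

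Deviations from the group means showed no pairing of the knockout libraries by replicate number. The correlations of same-numbered deviations were -0.0782, 0.00365 and -0.0834, and those of other pairs ran from -0.14 to 0.195. With 3 libraries a group these correlations cannot decide whether same-numbered libraries share an animal. The libraries with both Xist and Y-linked reads need not each be from 1 animal. Both replicate 1 libraries had 0 Xist reads, while those of replicate 2 had 0 Y-linked reads in skin and 213 in epidermis. With the replicate block 2805 genes were called in knockout in place of 4227, 1271 for the difference in place of 2539 and 5231 in wild type in place of 6260. Depth limits genes near 3 reads, and 3 libraries a group cannot pass an exact permutation test below 0.1.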

Other observations

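Malat1, a long non-coding RNA that stays in the nucleus, was among the 15 largest rises, with 25.3, 10.1 and 15.6 CPM in skin and 66.5, 143 and 130.4 CPM in epidermis (log2 difference 2.73 ± 0.40, adjusted p = 0.00427), and Lars2, the mitochondrial leucine tRNA synthetase, gave 308, 137 and 115 CPM in skin and 1320.4, 1410.3 and 1447 CPM in epidermis (log2 difference 2.89 ± 0.37, adjusted p = 0.00317). Ache, acetylcholinesterase, gave 3.05, 0.714 and 2.16 CPM in skin and 9.8, 23 and 13.1 CPM in epidermis (log2 difference 2.94 ± 0.51, adjusted p = 0.00694). In wild type the tissue difference of Malat1 was 2.33 (adjusted p = 0.00027), and the difference between genotypes passed for Ache (2.35, adjusted p = 0.0179).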
